A study of Homo sapiens with 18 samples.

Results

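BLNK is the adaptor protein that links the B cell receptor to its downstream enzymes, and it is described here with 8 further genes of that pathway: CD79A, CD79B, BTK, SYK, LYN, MS4A1, PLCG2 and CD22. These 9 genes, of 62703 counted in every library, were named as members of the pathway. BLNK itself was selected on its lower level in the gN1E-labelled libraries of the line labelled H929, so its difference in that line is given as a description with no test. The other members were followed to see whether they moved too, and in which lines. A wider list of 60 pathway genes, the members included, sets them among their partners.

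The study treated 3 human multiple myeloma cell lines (AMO1, NCI-H929, called H929 in the labels, and LP1) with a gapmer, a short DNA-like oligonucleotide that pairs with an RNA and has RNase H cleave it. The gapmer was either gN1E, aimed at the long noncoding RNA NEAT1, or the control SCR, and it entered the cells unaided (gymnosis). Total RNA was sequenced from 18 libraries, 3 for each of the 6 pairs of line and gapmer, with 28061606 to 69937229 assigned read pairs each. The treatment protocol gives a time of 48 h, while the series text gives the same number as days. Established lines are long-term tumour cultures grown without the tissue around them, and 1 gapmer sequence against NEAT1 was compared with 1 control. Replicates are told apart by letters alone, and nothing says that they were separate cultures, so every p below measures the spread between these libraries. With 3 libraries against 3, an exact permutation test cannot give a two-sided p under 0.1, and significance was therefore taken from models fitted across all genes. Groups that do not overlap reach only that 0.1, and the share of all genes with such groups was not counted.

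The labels need care before any direction is read. In all 18 deposited tables the name written inside the table has SCR where the label has gN1E, or the reverse. In 12 of them it also exchanges H929 with LP1. The values went against the gapmer labels: NEAT1 was higher, not lower, in the libraries labelled gN1E in every line. In those labelled AMO1 it stood at 85.1 ± 8.42 CPM (counts scaled to a common library total, mean ± SD, n = 3) with SCR and at 536 ± 41.3 CPM with gN1E. In those labelled H929 it stood at 81.3 ± 4.64 and 542 ± 53.2 CPM. In those labelled LP1 it stood at 151 ± 26.5 and 663 ± 93.7 CPM. The log2 fold changes were 2.66, 2.74 and 2.14, with adjusted p of 5.1e-13, 3.11e-14 and 0.0269 from the edgeR quasi-likelihood test, adjusted over all genes by Benjamini-Hochberg, and all 3 gN1E-labelled libraries lay above all 3 SCR-labelled libraries in each line. In LP1 the adjusted p was 0.176 without SCR replicate B and 0.111, 0.0886 and 0.0578 without gN1E replicate A, B or D, while the log2 fold change stayed at 2.00 or more. Labels are kept as deposited, and "NEAT1-high" below means labelled gN1E. For the line names, IGHV3-23, an immunoglobulin variable segment that a clonal plasma cell line either uses or lacks, was read at 1073 to 2195 CPM in every library labelled AMO1 or H929 and at 0 counts in every library labelled LP1. Whether the labels AMO1 and H929 hold related cells cannot be told apart from these values. The study states that its lines came from DSMZ, which authenticated them by short tandem repeat typing. Between these 2 labels, 11731 of 26436 genes differed in level in the edgeR quasi-likelihood test. Between LP1 and AMO1 the number was 20054, and between H929 and LP1 it was 19732.

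In a B cell, antigen binding to the surface immunoglobulin leads LYN and SYK to phosphorylate the signalling chains CD79A and CD79B. SYK then phosphorylates BLNK, which gathers BTK and PLCG2, and PLCG2 releases the second messengers that open calcium stores and drive NF-kappa-B and NFAT. Plasma cells, the normal counterpart of myeloma, secrete their immunoglobulin and lose much of this B cell machinery as they mature.

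Promoter sequences are printed for BLNK, for BTK, which was called lower in NEAT1-high libraries in H929, and for the phosphatase gene PTPRC, which was called lower there in AMO1 and H929, to show their start regions side by side. They run 5′ to 3′ on the gene's strand, from 250 bases before the start site to 50 after it, and come from RefSeq, build GRCh38.p14. The BLNK window is chr10:96271520-96271819 (minus strand), the BTK window, the nearer to the annotated gene start of the 2 listed for that gene, chrX:101390747-101391046 (minus strand) and the PTPRC window chr1:198638790-198639089 (plus strand). Capitals mark matches to 1 of 4 motifs of B cell or blood cell regulators, searched on both strands.
BLNK: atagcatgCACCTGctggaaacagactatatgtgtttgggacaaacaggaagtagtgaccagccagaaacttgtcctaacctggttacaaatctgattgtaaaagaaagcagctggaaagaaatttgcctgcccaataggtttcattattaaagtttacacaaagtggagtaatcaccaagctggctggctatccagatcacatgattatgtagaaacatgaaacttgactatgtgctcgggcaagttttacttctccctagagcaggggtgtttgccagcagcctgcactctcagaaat
BTK: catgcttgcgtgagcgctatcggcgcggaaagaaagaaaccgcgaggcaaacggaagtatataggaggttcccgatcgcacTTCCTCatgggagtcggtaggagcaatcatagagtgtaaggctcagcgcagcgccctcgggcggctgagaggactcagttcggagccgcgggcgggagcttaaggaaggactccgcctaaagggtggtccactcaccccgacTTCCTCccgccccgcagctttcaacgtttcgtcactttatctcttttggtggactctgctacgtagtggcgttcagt
PTPRC: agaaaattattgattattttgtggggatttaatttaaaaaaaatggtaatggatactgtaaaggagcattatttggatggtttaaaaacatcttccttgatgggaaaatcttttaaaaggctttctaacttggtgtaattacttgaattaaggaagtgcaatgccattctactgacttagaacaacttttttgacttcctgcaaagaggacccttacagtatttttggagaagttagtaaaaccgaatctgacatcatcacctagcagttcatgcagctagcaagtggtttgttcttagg
The letters searched were the octamer ATGCAAAT, held by 1.77% of all 35116 promoter windows, the ETS and PU.1 core GAGGAA (27.9%), the E-box CAGGTG (20.6%) and the palindromic early B cell factor motif (1.21%). BLNK held 1 match, the E-box on the other strand, starting at base -242 from the start site. BTK held 2 matches to GAGGAA on the other strand, at -169 and -27. PTPRC held 0 matches, and its window had 33.7% G and C against 42.7% for BLNK and 58% for BTK. None of the strings searched was shared by the 3 windows printed, and shorter or variant forms of these motifs were not searched. Across the 87 windows of the 48 list genes found in the table, 6 of them members, the shares were 2.3%, 37.9%, 23% and 1.15% in the same order. A match describes letters and is no evidence of binding.

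BLNK (ENSG00000095585.18, chromosome 10, 96189171 to 96271587) was read in every library. In the H929-labelled libraries, on which it was selected, it stood at 6.12, 5.05 and 5.54 CPM with SCR (replicates A, B and C) and at 3.67, 2.84 and 4.06 CPM with gN1E, where NEAT1 was high. The groups did not overlap. The log2 fold change was -0.66, and it lay between -0.78 and -0.53 when each library was left out in turn. It is given without a test.

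AMO1 libraries are not those named in the choice of BLNK, so it was tested there, although earlier results of these data were known when the members were chosen. There BLNK stood at 6.35, 5.1 and 5.39 CPM with SCR (replicates A, C and D) and at 4.55, 3.64 and 3.69 CPM with gN1E. Every NEAT1-high library was again below every SCR library. The log2 fold change was -0.49 (SE 0.141), but the adjusted p of 0.0919 missed the threshold of 0.05 in that edgeR quasi-likelihood test. Same-letter AMO1 libraries correlated weakly across the gapmers (0.143, 0.124 and 0.117), and the labels do not say that they were paired. With the letter as a block in that test, the adjusted p of BLNK was 0.00875. Other settings gave 0.00875 to 0.186. It passed with library size as the only scaling (0.0323), with no filter on low counts (0.0278) and without gN1E replicate A (0.0412), while leaving out gN1E replicate D raised it to 0.363. BLNK in AMO1 was thus lower in 3 of 3 NEAT1-high libraries, with a call that depended on the model. In bulk RNA, fewer cells that express a gene and less of its RNA per cell cannot be told apart.

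LP1 held almost no BLNK. The SCR libraries A, B and D gave 10, 6 and 7 counts (0.144, 0.094 and 0.126 CPM), and the gN1E libraries gave 2, 4 and 2 counts (0.0342, 0.0894 and 0.0444 CPM). The groups did not overlap, but only by 6 counts (0.094 CPM) against 4 (0.0894 CPM). With 31 counts in all, the log2 fold change of -1.12 had an SE of 0.76 and an adjusted p of 0.573, so a difference was not detectable at this depth. BLNK entered the test in LP1 through SCR replicate A alone, which just reached the 10 counts required. Its change in LP1 was not shown to differ from that in AMO1 (difference -0.67, adjusted p 0.728). Its annotated span also overlaps the pseudogene NPM1P25 on the same strand, and reads were counted by exon.

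**Figure D1:**
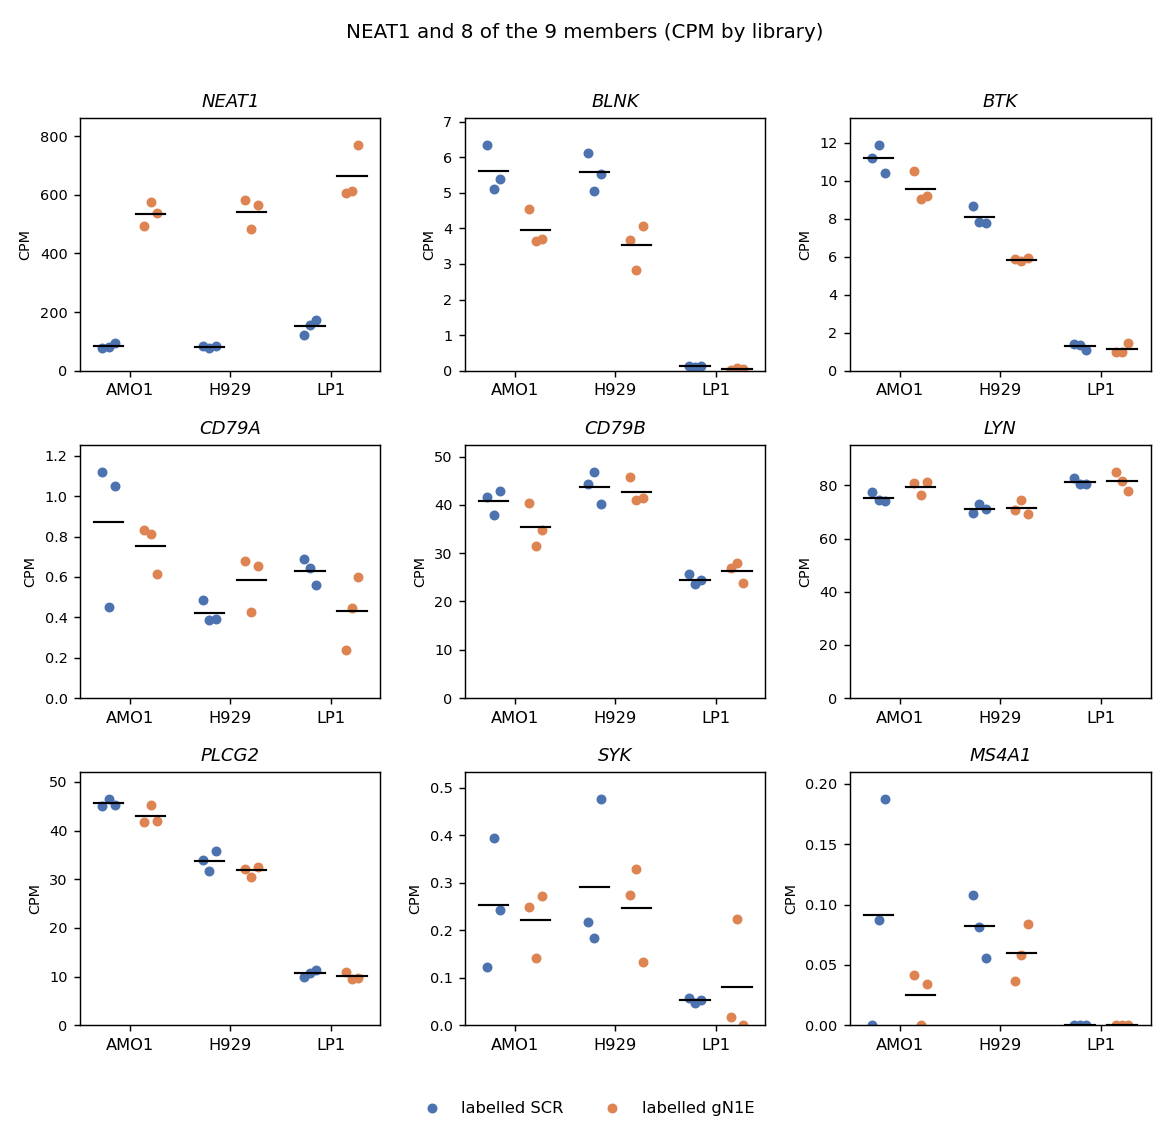
CPM of NEAT1 and 8 of the 9 members in each library, by line and gapmer label, on a linear axis for each gene, with 1 point per library and a bar at each group mean (CD22, at 0 or nearly so, is left out). NEAT1 points labelled gN1E lie above those labelled SCR in each line. BLNK points labelled gN1E lie below those labelled SCR in AMO1, where the adjusted p was 0.0919, and in H929, where no test was made, and BLNK is close to 0 in LP1.

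The receptor's signalling chains come next. CD79B (ENSG00000007312.14), which carries signal from the receptor with CD79A, stood at 41.7, 38 and 42.9 CPM with SCR and at 40.3, 31.5 and 34.7 CPM with gN1E in AMO1, lower with gN1E within each replicate letter. Its log2 fold changes were -0.20 in AMO1, -0.04 in H929 and 0.10 in LP1, with adjusted p of 0.325, 0.824 and 0.58, and its groups overlapped in each line. In AMO1 the block on the replicate letter lowered the adjusted p to 0.0347, the only setting that called it, and the others reached up to 0.424. With 1 library left out there, the log2 fold change ran from -0.30 to -0.12 and the adjusted p from 0.0525 to 0.678. In H929 the sign turned to 0.02 without SCR replicate B. CD79A (ENSG00000105369.10) was read at 14 to 63 counts a library. Its log2 fold changes were -0.18, 0.47 and -0.59 in AMO1, H929 and LP1, with adjusted p of 0.884, 0.489 and 0.466. In AMO1 its value was 0.05 without SCR replicate A, so neither its direction nor its size was settled at this depth.

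The surface proteins MS4A1 (CD20) and CD22, an inhibitory receptor of mature B cells, were at or near 0. MS4A1 (ENSG00000156738.18) gave 19 counts over the 6 AMO1 libraries, 22 over the 6 of H929 and 0 over the 6 of LP1, where a count of 0 allows up to 0.00889 CPM. CD22 (ENSG00000012124.17) gave 0 counts in AMO1 and H929, which allows up to 0.0106 and 0.0098 CPM, and 9 counts in LP1. These limits use 3 counts over the summed libraries of a line and cover counting error only. CD22 was tested in no line. MS4A1 was tested only in AMO1, which it entered through the 10 counts of SCR replicate D, and its log2 fold change of -1.61 had an SE of 1.24 and an adjusted p of 0.656. A change of either gene was not detectable.

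Of the kinases, LYN starts the signal, SYK carries it to BLNK, and BTK activates PLCG2. BTK (ENSG00000010671.18, chromosome X, 101349338 to 101390796) was the member that passed the threshold. In H929 it stood at 8.65, 7.83 and 7.78 CPM with SCR and at 5.86, 5.77 and 5.93 CPM with gN1E. All 3 NEAT1-high libraries lay below all 3 SCR libraries, and they lay close to each other (SD 0.0813 CPM). The log2 fold change was -0.47 (SE 0.101) with an adjusted p of 0.00363. The call held in each refit with 1 library left out, with an adjusted p of 0.0439 at most, and in each other fit tried, at 0.0131 at most. The change was smaller than the 1.5-fold cut-off of the study's supplementary methods, as was that of each list gene called in AMO1 or H929. The study's Results give its AMO1 calls by adjusted p with no fold change stated. Its targets, called in both knock-down and NEAT1-overexpressing AMO1 cells, include SH3KBP1, ITPR1 and ITPR2.

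BTK in AMO1 stood at 11.2, 11.9 and 10.4 CPM with SCR and at 10.5, 9.02 and 9.19 CPM with gN1E. The groups overlapped through SCR replicate D and gN1E replicate A. Its log2 fold change there was -0.22, with an adjusted p of 0.39. In LP1 it was -0.19 with an adjusted p of 0.766, at a mean of 1.29 CPM with SCR. The difference between H929 and AMO1 was itself tested and came to -0.23 with an adjusted p of 0.83, so BTK was not shown to respond differently in those lines.

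LYN (ENSG00000254087.8) was steady: its log2 fold changes were 0.07, 0.01 and 0.01 in AMO1, H929 and LP1, each with an SE of 0.0579 or less, and with library size as the only scaling the H929 value became -0.04, and in the joint fit of all libraries the LP1 value became -0.01. Its libraries lay between 69.4 and 85 CPM across all lines. SYK (ENSG00000165025.15) gave 71, 78 and 21 counts over the 6 libraries of AMO1, H929 and LP1. Its log2 fold changes of -0.20, -0.20 and 0.51 had SEs of 0.542, 0.494 and 1.02. In LP1 it entered the test only through the 10 counts of gN1E replicate B. The values changed sign in AMO1 and H929 when single libraries were left out and in LP1 with limma-voom (-0.63). The kinase that phosphorylates BLNK was thus too scarce for a change to be measured.

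PLCG2 (ENSG00000197943.12), the phospholipase that BLNK and BTK activate, was read at 424 to 3185 counts a library. Its log2 fold changes were -0.09, -0.09 and -0.08 in AMO1, H929 and LP1, with adjusted p of 0.65, 0.492 and 0.763. The groups overlapped in each line. The sign was negative in all 3 lines, with SEs of 0.0644, 0.0603 and 0.0882, so a change was not shown in any.

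Counted over the members, 0 of the 8 tested in AMO1, 1 of the 6 tested in H929 besides BLNK, and 0 of the 7 tested in LP1 passed the edgeR threshold, and DESeq2 and limma-voom gave the same counts. With the replicate letter as a block, which changes the AMO1 calls, 2 members passed there, BLNK (0.00875) and CD79B (0.0347). Both were lower, where that blocked fit called 776 genes higher and 618 lower of all 22933. At an unadjusted p under 0.05 the member counts were 3, 1 and 0, where 2803 of 22933, 4156 of 23499 and 3018 of 23165 genes had such a p in AMO1, H929 and LP1. Across all genes tested without the block, the shares called were 1.64% higher and 0.419% lower in AMO1, 3.7% higher and 1.77% lower in H929, and 0.656% higher and 0.777% lower in LP1. Over the list, 16 of 56, 17 of 54 and 10 of 56 genes tested had an unadjusted p under 0.05 in the same lines. The H929 counts are printed beside their background only, because that contrast chose BLNK.

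The wider list shows where else the pathway moved. In AMO1, 56 of the 60 list genes could be tested, and 5 were higher and 1 lower in NEAT1-high libraries, against 377 higher and 96 lower of all 22933 genes. The list median log2 fold change was 0.05, beside -0.02 for all genes. In H929, 54 of the 59 list genes other than BLNK were tested, and 5 were higher and 5 lower, against 870 and 416 of 23499. The H929 list median was -0.02, beside -0.01. In LP1, 56 of 60 were tested, and 0 were higher and 1 lower, against 152 and 180 of 23165; DESeq2 gave 1 higher (VAV2) and 1 lower. The LP1 medians were -0.01 and 0.00. SH3KBP1, ITPR1 and ITPR2 were among the targets the study itself chose on AMO1 libraries, so their place in these counts is not independent evidence. The study chose them as downregulated after NEAT1 knock-down and also upregulated in AMO1 cells that overexpress NEAT1, which are not among these libraries. Here they were higher in AMO1 libraries labelled gN1E. The study's knock-down direction is thus the reverse of the labelled one and the same as that of NEAT1 as measured.

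Scaling moved the split between directions. With library size as the only scaling, AMO1 list calls became 2 higher and 3 lower, against 309 higher and 295 lower of all genes. The share of all called genes that were higher went from 79.7% to 51.2%. In H929 the list calls became 4 and 5, against 556 and 743 of all genes, and that share went from 67.7% to 42.8%. In LP1 they became 1 and 1, against 229 and 130 of all genes, and the share went from 45.8% to 63.8%. With the replicate letter as a block, AMO1 gave 5 higher and 5 lower: BLNK, CD79B, DOK3, VAV1 and PTPRC were lower, against 776 higher and 618 lower of all genes. DOK3, a brake on the receptor, had a log2 fold change of -0.29 and a blocked adjusted p of 0.000378, against 0.066 without the block and 0.000378 to 0.143 over the settings. VAV1 had -0.16 and a blocked adjusted p of 0.0261, against 0.181 without the block and up to 0.232. Both were named after their values were seen.

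**Figure D2:**
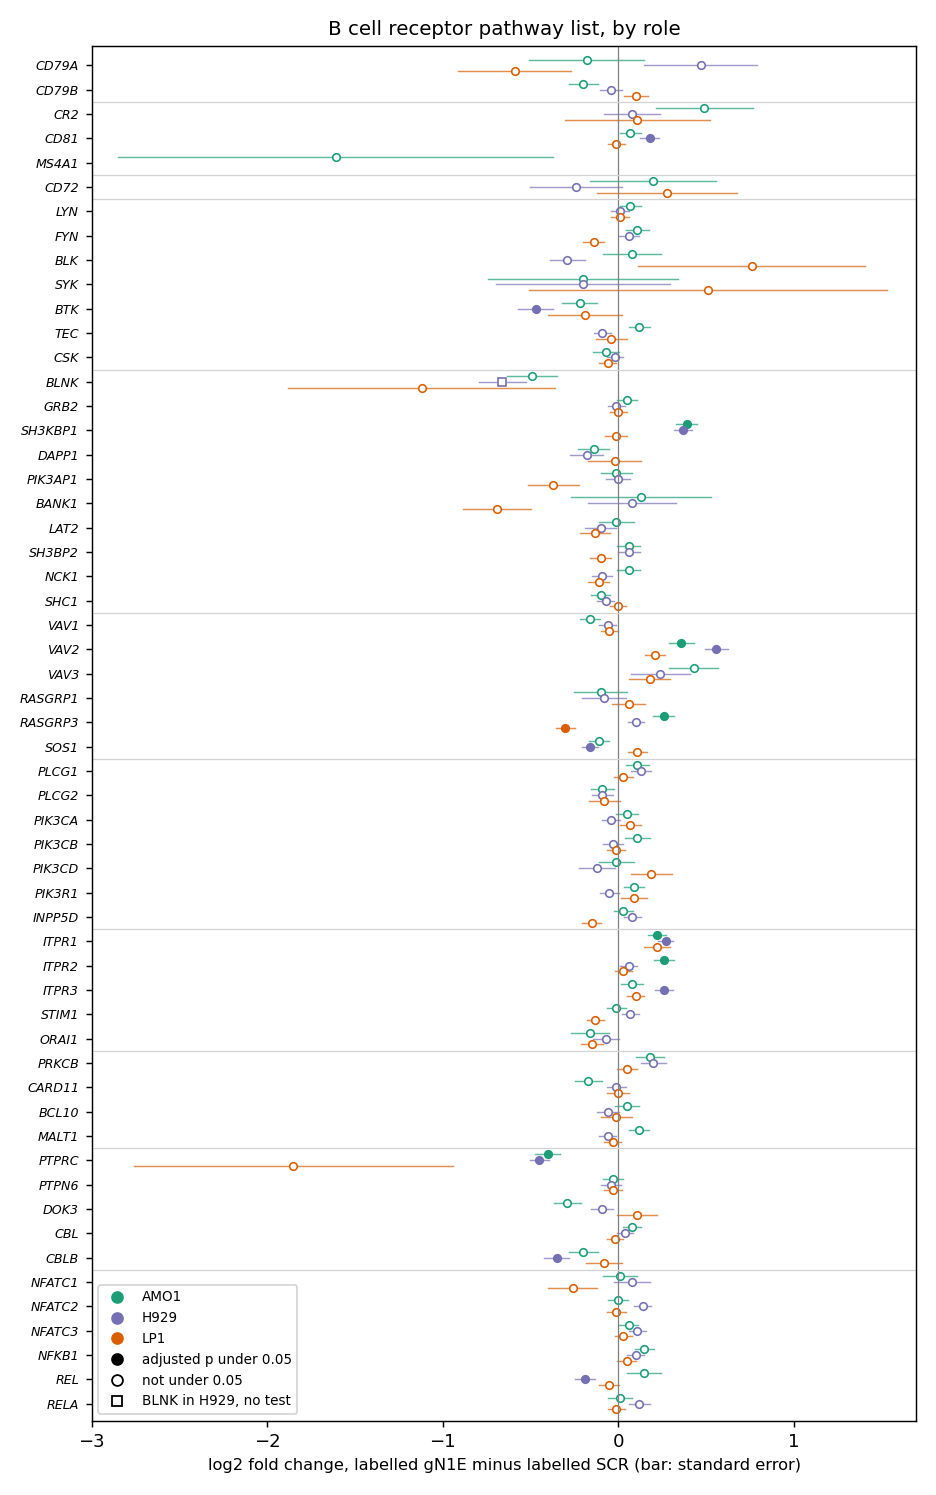
Log2 fold change (gN1E minus SCR label) of the members tested and of the other list genes tested in more than 1 line, by role, with a point for each line and a bar of 1 standard error on each side. Filled points passed an adjusted p of 0.05, and the square is BLNK in H929, which has no test. The wide bars belong to genes with few reads, such as MS4A1 in AMO1 and SYK and PTPRC in LP1.

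PTPRC (CD45, ENSG00000081237.21), the phosphatase that keeps LYN ready to signal, was lower in both lines that express it. In AMO1 it stood at 50.3, 50.5 and 43.5 CPM with SCR and at 35.9, 37.5 and 35.7 CPM with gN1E. In H929 it stood at 57.1, 57.1 and 54.2 CPM with SCR and at 42.1, 39.8 and 41.7 CPM with gN1E. Groups were fully separate in both. The log2 fold changes were -0.40 (SE 0.071) and -0.45 (SE 0.0539), with adjusted p of 0.00198 and 1.18e-06, and both calls held in every fit tried, with any library left out too, at an adjusted p of at most 0.0244 in AMO1 and 0.000184 in H929. The difference between those lines was -0.03, with an adjusted p of 1. LP1 had 12, 10 and 3 counts of PTPRC with SCR and 0, 3 and 2 with gN1E. Its log2 fold change there, -1.85 with an adjusted p of 0.393, rests on those few reads, and the gene entered the test through SCR replicates A and B, where it was high.

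SH3KBP1 (CIN85, ENSG00000147010.19), an adaptor that binds BLNK, moved the other way. In AMO1 it stood at 78.8, 73.1 and 77.4 CPM with SCR and at 104, 97.3 and 99.2 CPM with gN1E. In H929 it stood at 73.9, 76.5 and 72.8 CPM with SCR and at 98.3, 95.6 and 94.2 CPM with gN1E. Every NEAT1-high library was above every SCR library in both lines. The log2 fold changes were 0.39 and 0.37, with adjusted p of 0.000299 and 6.53e-06, and neither call was lost in any fit tried. In LP1 the levels were 35.6, 37.3 and 39.2 CPM with SCR and 33.7, 38.4 and 39.2 CPM with gN1E, overlapping throughout, with a log2 fold change of -0.01 (0.02 with library size only).

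VAV2 (ENSG00000160293.17), an exchange factor that acts beside BLNK, was higher in the same lines. In AMO1 it stood at 26.7, 25.8 and 25.6 CPM with SCR and at 35.3, 31.4 and 33.5 CPM with gN1E. In H929 it stood at 19, 20.3 and 18.6 CPM with SCR and at 27.9, 29.4 and 28.1 CPM with gN1E. LP1 gave 30.2, 28.8 and 28.4 CPM with SCR and 34.5, 34.2 and 32.6 CPM with gN1E. Groups were separate in all 3 lines. The log2 fold changes were 0.36, 0.56 and 0.21, with adjusted p of 0.00573, 4.71e-07 and 0.0671. In LP1 it passed with library size only (0.0399) and with DESeq2 (0.0429), within a range of 0.0399 to 0.162 over the settings.

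RASGRP3 (ENSG00000152689.18), a Ras exchange factor driven by the diacylglycerol that PLCG2 makes, moved in opposite directions. In AMO1 it stood at 209, 205 and 186 CPM with SCR and at 224, 243 and 249.7 CPM with gN1E, a log2 fold change of 0.26 with an adjusted p of 0.0214. In LP1 it stood at 45.7, 46.1 and 44.9 CPM with SCR and at 34.9, 37 and 39 CPM with gN1E, a log2 fold change of -0.30 with an adjusted p of 0.00664. The NEAT1-high libraries were all higher in AMO1 and all lower in LP1. In H929 the log2 fold change was 0.10 with an adjusted p of 0.263. With the replicate letter as a block, the AMO1 adjusted p was 0.000215. The AMO1 call was lost with library size only (0.0515) and without SCR replicate D (0.179), gN1E replicate C (0.126) or gN1E replicate D (0.212). The LP1 call reached 0.0518 without gN1E replicate A.

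The inositol trisphosphate receptors, which release the calcium that PLCG2 calls for, were also higher where they were called. ITPR1 had log2 fold changes of 0.22 in AMO1 and 0.27 in H929, with adjusted p of 0.0214 and 0.000214. ITPR2 was called in AMO1, at 0.26 with an adjusted p of 0.0179, and ITPR3 in H929, at 0.26 with an adjusted p of 0.00166. Neither was shown to differ between H929 and AMO1 (differences -0.18 and 0.19, adjusted p 0.691 and 0.713). ITPR1 in LP1 was also 0.22, higher in 3 of 3 NEAT1-high libraries, with an adjusted p of 0.186. In AMO1 and H929, all 3 NEAT1-high libraries were above the SCR libraries for each of these calls. With the replicate letter as a block, the AMO1 adjusted p were 0.000514 for ITPR1 and 0.000311 for ITPR2. In AMO1 both calls were lost with library size only (0.0876 and 0.0604, at 0.18 and 0.22). They were also lost without SCR replicate D (0.125 and 0.127), gN1E replicate C (0.122 and 0.117) or gN1E replicate D (0.13 and 0.158), while over all such refits ITPR1 stayed at 0.21 to 0.23 and ITPR2 at 0.24 to 0.29. Without any 1 of those 3 libraries the AMO1 list count fell from 6 to 3.

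H929 had further list genes past the threshold. CBLB, a ubiquitin ligase that restrains the receptor, went from 18.2 to 14.2 CPM on average, a log2 fold change of -0.35 with an adjusted p of 0.00242. CD81, a tetraspanin of the cell surface, was higher by a log2 fold change of 0.18 with an adjusted p of 0.0449. The NF-kappa-B subunit gene REL was lower at -0.19 (0.0493), and the exchange factor gene SOS1, named after its value was seen, was lower at -0.16 (0.0413). Each of these 4 had separate groups. Of them only CBLB kept its call in every fit tried, with any library left out too. Over the other settings the adjusted p ran from 0.0108 to 0.151 for CD81, from 0.0162 to 0.101 for REL and from 0.00847 to 0.1 for SOS1. CD81 lost its call without SCR replicate A (0.174) or C (0.128) or gN1E replicate B (0.326) or C (0.0503). REL lost it without SCR replicate A (0.189) or C (0.125) or gN1E replicate A (0.0618), B (0.272) or C (0.064). SOS1 lost it without SCR replicate A (0.15) or B (0.119) or gN1E replicate A (0.0686), B (0.234) or C (0.0598).

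**Figure D3:**
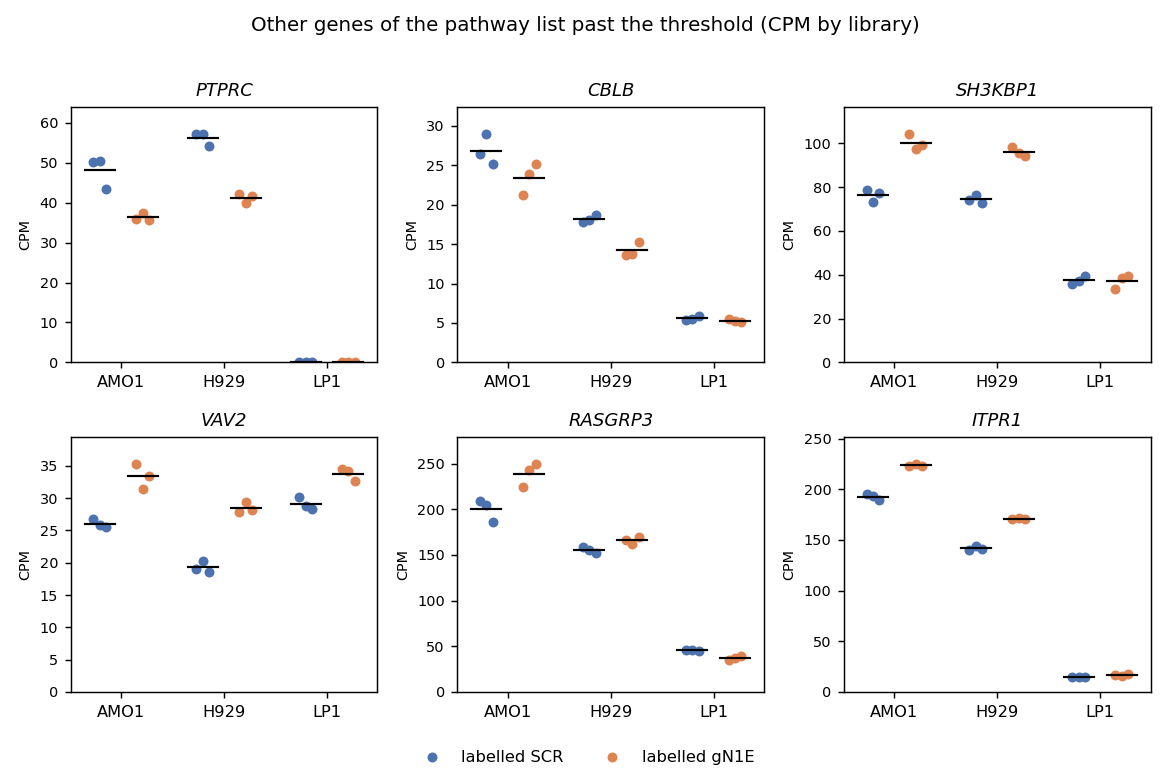
CPM of 6 list genes outside the members that passed the threshold in at least 1 line, in each library by line and gapmer label, with 1 point per library and a bar at each group mean. PTPRC is lower in the libraries labelled gN1E of AMO1 and H929, and SH3KBP1 and VAV2 are higher there.

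AMO1 and H929 shared 3 of their 5 higher genes (ITPR1, SH3KBP1 and VAV2) and 1 lower gene, PTPRC, which was 1 of 1 in AMO1 and 1 of 5 in H929. Over all genes these lines shared 323 higher genes, 85.7% of those in AMO1 and 37.1% of those in H929, and 40 lower genes, 41.7% and 9.62%. In these fits, 0 list genes were called in LP1 and in another line in the same direction, but with DESeq2 or library size only VAV2 was called higher in all 3 lines. Whether effects differed between lines was tested directly. Between H929 and AMO1, 0 of the 56 list genes tested differed in the edgeR quasi-likelihood test, where 7 had an unadjusted p under 0.05, against a background of 0% of 26436 genes, with 1771 at that unadjusted p. DESeq2 and limma-voom also gave 0 in the list, and over all genes they called 5 and 0. Between LP1 and AMO1, 2 of 57 differed, both more negative in LP1, against 0.741% of all genes. They were RASGRP3 (difference -0.58, adjusted p 1.23e-05) and SH3KBP1 (-0.42, 0.0031). DOK3, more positive in LP1, joined them with library size only and with no filter, and ITPR2, more negative in LP1, with DESeq2. Between H929 and LP1, 3 of 56 differed, all more positive in H929, against 0.874%. They were RASGRP3 (0.44, 0.000943), SH3KBP1 (0.41, 0.00316) and VAV2 (0.38, 0.0245). Neither the number nor the single direction held in each setting: library size only gave 1 more positive in H929 and 1 more negative (RASGRP3 and SOS1), and DESeq2 gave 4 and 1, adding INPP5D and SOS1. DOK3, ITPR2, SOS1 and INPP5D are named here after these values were seen.

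Most of those differences kept their call. With library size only, SH3KBP1 between H929 and LP1 reached an adjusted p of 0.0592 and VAV2 reached 0.215. VAV2 also missed the threshold without H929 SCR replicate A (0.0897) or C (0.0926), H929 gN1E replicate B (0.0974), LP1 SCR replicate A (0.0984) or B (0.0525), or LP1 gN1E replicate D (0.0812). The count between H929 and LP1 was 5 without LP1 SCR replicate D. These comparisons share the LP1 libraries, so they are not independent of each other. Of the members, 0 differed in effect between lines by edgeR, DESeq2 or limma-voom; at an unadjusted p under 0.05 the counts were 0 of 7 for H929 against AMO1, 1 of 8 for LP1 against AMO1 and 1 of 7 for H929 against LP1, where all genes gave 1771, 2820 and 2664 of 26436.

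Levels were compared next. On the scale of TPM, which divides reads by exon length so that genes can be compared, 50 of 60 list genes were above 1 TPM in every AMO1 library, 48 in every H929 library and 45 in every LP1 library. The highest list genes in AMO1, by means over both labels, were PTPN6 at 203 TPM, SHC1 at 92.5 and CSK at 90.4. TEC followed at 87.7, and the libraries of SHC1, CSK and TEC overlapped. With gN1E alone TEC stood at 90.4, above SHC1 at 88.4 and CSK at 87.3. In H929 the highest were CSK at 151 TPM, TEC at 122 and PTPN6 at 111, with overlap between neighbours. In LP1 they were SHC1 at 252 TPM, CSK at 226 and VAV1 at 187, and SHC1 and CSK overlapped. PTPN6 and CSK restrain the receptor's kinases, SHC1 is a Ras adaptor, TEC a kinase related to BTK and VAV1 an exchange factor.

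No member was among the 3 highest list genes in any line, and the members ranged from CD79B and LYN down to genes at 0. In AMO1 the order by mean TPM (± SD, n = 6 libraries) was CD79B at 54.3 ± 5.47, LYN at 37.9 ± 1.58, PLCG2 at 7.33 ± 0.612, BTK at 4.01 ± 0.529, CD79A at 1.81 ± 0.522, BLNK at 1.37 ± 0.296, SYK at 0.139 ± 0.0625, MS4A1 at 0.0369 ± 0.0441 and CD22 at 0. Libraries overlapped between CD79A and BLNK, between SYK and MS4A1, and between MS4A1 and CD22. In H929 the order was CD79B at 61.3 ± 3.25, LYN at 34.9 ± 1.7, PLCG2 at 5.4 ± 0.534, BTK at 2.7 ± 0.56, BLNK at 1.31 ± 0.392, CD79A at 1.13 ± 0.275, SYK at 0.156 ± 0.0753, MS4A1 at 0.0451 ± 0.017 and CD22 at 0. There BLNK and CD79A overlapped, and their order turned with the label. They stood at 1.63 and 0.969 TPM with SCR and at 0.986 and 1.29 TPM with gN1E.

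LP1 had a different order. LYN stood at 39 ± 2.64 TPM and CD79B at 35.3 ± 2.85, overlapping each other, and PLCG2 followed at 1.67 ± 0.157, overlapping CD79A at 1.16 ± 0.369. BTK stood at 0.462 ± 0.0908, SYK at 0.0362 ± 0.0418, BLNK at 0.0246 ± 0.012, CD22 at 0.0128 ± 0.013 and MS4A1 at 0. SYK, BLNK, CD22 and MS4A1 overlapped as neighbours. The order of SYK and BLNK also turned with the label, from 0.0298 and 0.0338 TPM with SCR to 0.0426 and 0.0154 TPM with gN1E. LYN and CD79B stood highest among the members in each line, while BLNK and BTK stood at lower TPM in LP1 than in AMO1 and H929.

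**Figure D4:**
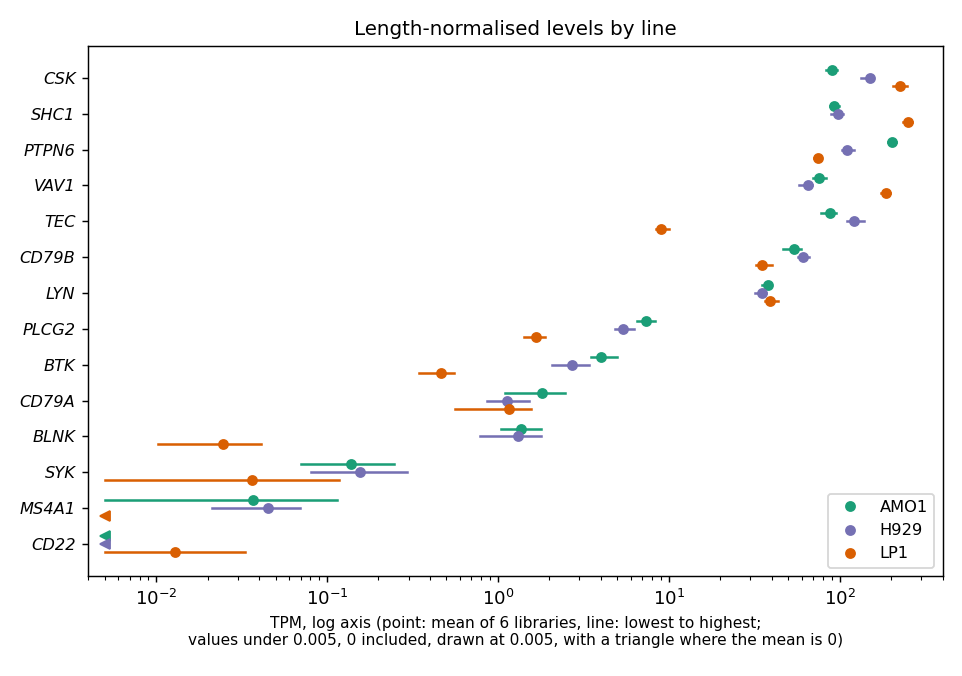
TPM of the 9 members and of the highest list genes on a log axis, with a point at the mean of the 6 libraries of a line, a line from the lowest to the highest, and a triangle where the mean is 0. LYN and CD79B are the highest members in each line, and the BLNK point of LP1 lies far below those of AMO1 and H929.

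Tests of the line means, averaged over both gapmer labels, put values on these differences between cultures. BLNK differed in level between H929 and AMO1 by a log2 difference of -0.10, given with no test because the H929 libraries chose it, and in LP1 it was lower than in AMO1 by a log2 difference of -5.64 (adjusted p 3.54e-24). BTK was lower in H929 than in AMO1 (-0.60, adjusted p 8.73e-08) and lower still in LP1 (-2.90 against AMO1, adjusted p 2.51e-24). PLCG2 had the same order, with -0.44 for H929 and -1.91 for LP1 against AMO1 (adjusted p 5.69e-10 and 2.79e-27).

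SYK was lower in LP1 than in AMO1 by -1.70 (adjusted p 0.00374). MS4A1, at 0 in LP1, was at least 7.54-fold lower there than in AMO1 and at least 8.09-fold lower than in H929, taking 3 counts over the 6 LP1 libraries. Of its 19 AMO1 counts 10 came from SCR replicate D, and without that library the bound against AMO1 was 4.4-fold. CD79B was higher in H929 than in AMO1 by 0.17 (adjusted p 0.0106) and lower in LP1 by -0.40 (adjusted p 1.04e-07). LYN was the member that was higher in LP1 than in AMO1, by 0.26 (adjusted p 1.14e-07), but with library size only the difference was 0.07 and the adjusted p 0.0644, within a range of 5.12e-16 to 0.0644. LYN was lower in H929 than in AMO1 by -0.13 (adjusted p 0.00481, up to 0.0521 with no filter). CD79A was lower in H929 than in AMO1 by -0.70 (adjusted p 0.0158), a call lost with limma-voom (0.0506) and without AMO1 SCR replicate A (0.0555). Between LP1 and AMO1 CD79A missed the threshold (-0.47, adjusted p 0.0696), and passed with library size only (0.0123) and without AMO1 SCR replicate C (0.00994) or LP1 gN1E replicate D (0.0254).

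Over the list, with BLNK left out where H929 is compared, H929 against AMO1 gave 18 genes higher and 27 lower of 56 tested, where 23.2% and 21.2% of all genes were called. LP1 against AMO1 gave 19 higher and 34 lower of 57, where 37.9% of all genes were higher and 37.9% lower. H929 against LP1 gave 32 higher and 18 lower of 56, where the shares were 38.4% and 36.2%. The list medians were -0.07, -0.35 and 0.30, beside 0.00, -0.02 and 0.05 for all genes, and those with LP1 did not change with MS4A1 at its bound. Pathway genes thus stood at lower levels in LP1 more often than at higher ones.

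Markers were read to check the labelled cell type. All 9 plasma cell markers were read in each line, and their summed level was 16423 to 18991 CPM per AMO1 library, 18919 to 22157 CPM per H929 library and 10434 to 11091 CPM per LP1 library. SDC1 (CD138) was the most abundant of them in AMO1 and H929 and JCHAIN in LP1. In H929, SDC1 was higher (log2 fold change 0.22, adjusted p 0.0196) and CD38 lower (-0.21, adjusted p 0.00406) in NEAT1-high libraries, and their part in the BLNK and BTK values was not tested.

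The 8 B cell markers summed to 314 to 350.1 CPM per AMO1 library, 244 to 268 CPM per H929 library and 54.5 to 62 CPM per LP1 library. CIITA was the most abundant in AMO1 and H929 and BACH2 in LP1. PAX5 and CD22 were at 0 in AMO1, CD22 in H929 and MS4A1 in LP1. Some of these markers, MS4A1 and CD22 among them, are also genes of the pathway list. BACH2 was higher in NEAT1-high H929 libraries by 0.19 (adjusted p 0.0328), and 0 B cell markers were called in AMO1 or LP1. In H929, 4 of these markers could be tested, and 1 was higher and 0 lower; their part in the BLNK and BTK values was not tested.

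A last comparison asked which genes varied most like BLNK. Log2 CPM was centred within each line and compared over 13844 genes and 18 libraries, so shared gapmer labels and shared libraries enter each value, and Pearson's r is given as a description. The genes most like it were BBC3 (r 0.923), DOK4 (0.881), VDAC2 (0.878), PHTF1 (0.873) and CAPG (0.871). The genes most opposite to it were SFXN2 (-0.894), ITPR1 (-0.87), RCBTB1 (-0.864), PIGL (-0.863) and POLD3 (-0.859). NEAT1 itself stood at -0.818. Without LP1, where BLNK was nearly absent, the values over 12 libraries were 0.905 for BBC3, 0.871 for VDAC2, 0.836 for CAPG, 0.795 for PHTF1 and 0.764 for DOK4. They were -0.941 for PIGL, -0.91 for RCBTB1, -0.897 for POLD3, -0.877 for SFXN2, -0.866 for ITPR1 and -0.867 for NEAT1, so the order changed.

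Among the other members, r with BLNK over the 18 libraries was 0.575 for BTK, 0.389 for PLCG2, 0.319 for CD79B and -0.145 for LYN, and over the 12 libraries without LP1 it was 0.896, 0.673, 0.536 and -0.393. Of the other list genes, PTPRC stood at 0.75 over 18 libraries and 0.88 over 12, CBLB at 0.593 and 0.732, SH3KBP1 at -0.458 and -0.81, and VAV2 at -0.687 and -0.833. The H929 libraries, on which BLNK was selected, enter all of these values, and differences between them were not tested.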

How the data were processed

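Total RNA from 18 libraries was read as the gene count tables deposited by the authors: read counts per gene, made per the labels by alignment to hg38 (STAR 2.7.10a) and assignment by featureCounts 1.6.4, and per the file headers with stranded read pairs and GENCODE release 43. Library depth was 28061606 to 69937229 counts, which gives the limits printed beside genes at 0. Groups followed the labels. Within each line, genes that reached 10 reads in any of the 6 libraries were fitted with edgeR 4.0.16 (TMM scaling, robust quasi-likelihood test, Benjamini-Hochberg adjustment over all genes tested, threshold 0.05). Differences between lines, in effect and in level, came from a fit of all 18 libraries. Two-sided tests were used throughout. CPM were TMM-scaled within a line, and TPM used exon length.

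Alternatives were RLE size factors, library size only, DESeq2 1.42.0, limma-voom (limma 3.58.1), a stricter filter and none, a block on the replicate letter, a joint fit, the threshold of the study's supplementary methods and leaving out each library. In AMO1 the correlation of gN1E and SCR libraries of a letter, as deviations from group means, was 0.143, 0.124 and 0.117 over 15434 genes. Libraries of unlike letters were not compared, so pairing was not shown. Code was R 4.3.3 and Python 3.11.15 with numpy 2.4.6, pandas 2.3.3 and matplotlib 3.10.9. The fits were tested on simulated data, with larger gapmer changes than those called in the list and in well-read genes only. Small changes and genes with few reads were thus not covered. Symbols came from a gene-name table, and all 60 list genes were found. Overlap on the same strand touches 23 of them, 5 being members. Promoters came from the RefSeq table for GRCh38.p14. Named besides the members were, in each line, up to 8 list genes past the threshold by size of change, list genes whose effect differed between lines, the 3 highest by TPM, and the 5 most like or unlike BLNK with a mean of at least 1 CPM. Members and lists were chosen with earlier results of these data known.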

Additional observations from a re-analysis of the deposited data

Results flagged for a closer look

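Effects of the gapmer label that differed between lines, by a test of the difference itself, concerned 3 genes of the pathway list and no member in edgeR with TMM. Under other settings DOK3 and ITPR2 also passed for LP1 against AMO1, and SOS1 and INPP5D for H929 against LP1. RASGRP3 was higher in NEAT1-high AMO1 libraries and lower in NEAT1-high LP1 libraries, and its log2 fold change in LP1 was below that in AMO1 by a difference of -0.58. Its H929 value was above its LP1 value by 0.44. SH3KBP1 was higher in AMO1 and H929 with no change past the threshold in LP1, which gave a difference of -0.42 for LP1 against AMO1 and 0.41 for H929 against LP1, the latter with an adjusted p of 0.0592 with library size only. VAV2 was higher in H929, and its log2 fold change there was above that in LP1, which missed the threshold, by 0.38; with library size only the adjusted p of this difference was 0.215, and it was also above 0.05 in 6 of the refits with 1 library left out. IGHV3-23 was at 0 counts in every LP1-labelled library, and LP1 also stood apart in its levels of BLNK and PTPRC. The part of those levels in the differences was not tested.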

How the results depend on the processing

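Over the settings other than leaving out a library, the counts of list genes stayed within 1.5 times their value in 66 cases and moved further in 9. The threshold of the study's supplementary methods (at least a 1.5-fold change, adjusted p below 0.1) gave 0 list genes in AMO1, 0 in H929, 1 in LP1 (the adaptor gene BANK1, adjusted p 0.0861 and 0.618-fold, named after its value was seen, and not RASGRP3), 0 for LP1 against AMO1, 0 for H929 against LP1, and 15 for the level of H929 against AMO1. The study's Results give its AMO1 calls at an adjusted p below 0.05, and its targets there include SH3KBP1, ITPR1 and ITPR2. The block on the replicate letter raised the AMO1 count to 10. Library size only and DESeq2 each gave 2 in LP1, and DESeq2 gave 5 for H929 against LP1. With 1 library left out, the count ran from 3 to 8 in AMO1, from 0 to 2 in LP1 and from 2 to 5 for H929 against LP1. For single genes under the settings that keep all libraries, 679 values kept direction and side of the threshold, 22 lost a call, 13 gained a call and 5 changed sign. With 1 library left out these numbers were 878, 35, 5 and 18. With the block, CD79B in AMO1 was called at -0.21 and BLNK in AMO1 at -0.50. BLNK in AMO1 was also called at -0.53 with library size only and at -0.50 with no filter. Library size only turned LYN in H929 to -0.04, CD81 in LP1 to 0.01 and SH3KBP1 in LP1 to 0.02. LYN in LP1 was -0.01 in the joint fit, and SYK in LP1 was -0.63 with limma-voom. Leaving out a library, BLNK in AMO1 ran from -0.61 to -0.39. Some ranges crossed 0 with 1 library left out, among the genes followed through every setting. These ranges were -0.51 to 0.05 for CD79A in AMO1, -0.51 to 0.29 for SYK in AMO1, -0.09 to 0.02 for CD79B in H929, -0.02 to 0.03 for LYN in H929 and -0.46 to 0.28 for SYK in H929. In LP1 they were -0.04 to 0.02 for CD81, -0.02 to 0.04 for LYN and -0.05 to 0.06 for SH3KBP1. Other list genes also had ranges that crossed 0. The level of SYK in H929 against AMO1 ran from -0.12 to 0.36, and the difference of effect of PTPRC between those lines from -0.07 to 0.04. The cause was not tested. Same-letter correlations across the gapmers were -0.00905, -0.0241 and -0.058 in H929, and 0.132, 0.0108 and -0.0116 in LP1. The LP1 value of letter A was within the range seen in AMO1, and pairing was not shown in any line.

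The gapmer labels run against NEAT1 in every line, so each direction holds for the labels as deposited and for NEAT1 as measured. The lines are 3 cultures with 3 libraries for each gapmer, and a result of a line cannot be read as one of myeloma. RNA levels say nothing of protein or phosphorylation, through which this pathway signals. CD22, MS4A1 and SYK were too scarce for a fall to be seen, as was BLNK in LP1. Several list genes overlap another gene on the same strand, and their reads were counted by exon.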

Other observations

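Markers of other cell types were low beside those of plasma cells, but some stood above BLNK. With SCR, BLNK averaged 5.61 CPM in AMO1, below CD3E, and 0.121 CPM in LP1, below CSF1R. The 5 T and NK cell markers summed to 27.7 CPM with SCR and 24.8 CPM with gN1E in AMO1, 9.6 and 9.04 CPM in H929 and 14.5 and 12.1 CPM in LP1. Most of it was CD3E, at 24.4 and 21.1 CPM in AMO1, and CD3D was at 0 in H929. The 5 myeloid markers summed to 0.515 and 0.363 CPM in AMO1, 0.416 and 0.349 CPM in H929 and 7.72 and 4.48 CPM in LP1. In LP1 that was mostly CSF1R, whose mean was 7.46 CPM with SCR and 4.2 CPM with gN1E (adjusted p 0.155 in the edgeR fit), and FCGR3A was at 0 in each line.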
